A study of Mus musculus with 11 samples.

Results

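The solute carrier genes encode membrane proteins that move small molecules across the cell surface and across the membranes of organelles. The set described here holds every gene whose symbol begins with Slc and a number, except Slc2a1 and Slc16a3, and that was detected on at least 3 of 11 arrays. Of 369 such genes with a named probe, 257 met this rule and 112 did not. Detection means that the scanner software marked a probe as well above background. The measured signal therefore chose the members, and their detection is a description with no test. Detected on all 11 arrays were 164 members. Just inside the limit, with 3 arrays, were 8 members (Slc6a2, Slc7a11, Slc7a12, Slc8a1, Slc9a2, Slc13a4, Slc23a1 and Slc26a7). Just outside it, with 2 arrays, were 11 genes (Slc4a8, Slc6a3, Slc6a7, Slc12a8, Slc16a1, Slc27a5, Slc35a5, Slc35b4, Slc35d3, Slc38a4 and Slc39a5). Slc34a2, a phosphate transporter of secretory epithelia, was not a member either.

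Solute carriers are numbered by family, and a family usually shares a fold and a kind of cargo, such as glutamate and neutral amino acids for Slc1 or zinc for Slc30 and Slc39. Most work by facilitated diffusion, by exchange, or by coupling a solute to the sodium, proton or chloride gradient that ion pumps maintain. In the mammary gland, luminal cells line the duct and move iodide, zinc, glucose and other solutes towards milk. Basal cells, mostly contractile myoepithelium, lie against the basement membrane.

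The RNA came from mammary outgrowths grown from primary mouse epithelial cells that had been infected in suspension with lentivirus and injected in Matrigel. The virus delivered either shROR2, a hairpin targeting Ror2, or the control hairpin shLUC. Ror2 is a receptor for non-canonical Wnt ligands, and the study asked what its loss does in each epithelial layer. Basal and luminal cells were separated by flow cytometry on CD24 and CD29, which gave 3 basal shROR2, 3 basal shLUC, 2 luminal shROR2 and 3 luminal shLUC arrays. One further luminal shROR2 sample is not analysed here. All cells of all groups had been infected, so no group is free of virus. The strain and age of the mice are not given in the sources used here. The labels call the samples of a group biological triplicates, and say nothing of pooling or of which samples came from the same outgrowth.

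Between 53.4% and 60.0% of spots lay well above background on each array, and no spot was saturated. Levels are log2 signals relative to the 75th percentile of the array, so that 0 is that percentile. Correlations between arrays of a group were 0.941 to 0.953 in basal shROR2, 0.976 to 0.982 in basal shLUC, 0.983 in luminal shROR2 and 0.981 to 0.983 in luminal shLUC. The median SD of the members was 0.438, 0.225, 0.156 and 0.175 in the same groups, so the basal shROR2 arrays varied most. The fit used below takes a single spread per gene over all groups, so it pools these arrays with less variable groups. The single Ror2 probe was too dim to check the labels. It was well above background on 1 of 3 basal shROR2 arrays, 0 of 3 basal shLUC arrays, 0 of 2 luminal shROR2 arrays and 0 of 3 luminal shLUC arrays. Exact 2-sided permutation of the arrays between the hairpins gave p = 0.7 in basal cells and 0.3 in luminal cells, where 0.1 is the smallest p either design allows. Directions given below for the hairpin thus rest on the labels alone. In shLUC outgrowths 5 of 6 basal markers, keratins and contractile proteins among them, were called higher in basal cells, and 10 of 10 luminal markers were called lower. In the shROR2 outgrowths the counts were also 5 of 6 and 10 of 10.

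The promoters of 3 members called between the compartments are shown as examples of a match to one motif, and they were picked after the matches and the changes were known. Slc12a4 and Slc43a1 were higher in basal cells and Slc28a3 was lower. Other called members, Slc1a3 and Slc5a5 among them, held none of the motifs searched. Each stretch holds the 250 bases before the gene's start, from RefSeq on build GRCm38.p6, read 5′ to 3′ on the gene's strand. Capitals mark GGAATG, the core letters bound by TEAD factors, searched on both strands. Slc12a4 lies on the minus strand (chr8:105966116-105966365), Slc43a1 on the plus strand (chr2:84840073-84840322) and Slc28a3 on the minus strand (chr13:58610878-58611127).
Slc12a4: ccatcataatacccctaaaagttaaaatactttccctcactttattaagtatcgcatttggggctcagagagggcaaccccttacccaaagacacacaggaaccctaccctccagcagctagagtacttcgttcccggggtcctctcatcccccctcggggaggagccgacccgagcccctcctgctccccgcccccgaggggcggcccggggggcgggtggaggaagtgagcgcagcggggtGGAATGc
Slc43a1: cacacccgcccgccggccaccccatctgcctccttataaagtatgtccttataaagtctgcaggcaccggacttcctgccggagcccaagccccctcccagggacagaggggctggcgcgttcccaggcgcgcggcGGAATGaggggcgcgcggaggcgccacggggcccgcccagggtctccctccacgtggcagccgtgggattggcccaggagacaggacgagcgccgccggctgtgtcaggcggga
Slc28a3: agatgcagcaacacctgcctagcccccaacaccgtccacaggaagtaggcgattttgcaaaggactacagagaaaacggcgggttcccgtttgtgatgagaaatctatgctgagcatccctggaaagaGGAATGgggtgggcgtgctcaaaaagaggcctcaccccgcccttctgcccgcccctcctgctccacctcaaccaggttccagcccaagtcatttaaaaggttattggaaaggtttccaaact

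The RefSeq promoter table held 189 of the 257 members, and GGAATG stood in the promoters of 35 of them. It stood in 14.4% of all 27025 genes of the table, or 12.6% of its 32851 promoters. Among members called between basal and luminal shLUC cells and found in the table, 7 of 34 that were higher in basal cells held it. Of those that were lower in basal cells, 10 of 36 held it. The letters TGATGNAA, bound by ATF4 with its partners at genes of amino acid supply, stood in 0 of 34 and 1 of 36 of these promoters and in 3.91% of genes. The AP-1 letters TGANTCA stood in 5 of 34 and 2 of 36 (7.82% of genes), the GATA letters AGATAA in 7 of 34 and 5 of 36 (11.4%), and the E-box CACGTG in 7 of 34 and 3 of 36 (6.86%). No motif contains another, though matches may overlap, and a match describes only the letters.

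Basal and luminal cells of shLUC outgrowths differed in 102 of 257 solute carrier genes. Of these, 52 were higher in basal cells and 50 lower. Glucose transporters Slc2a3 and Slc2a4, the glutamate transporter Slc1a3, the potassium-chloride cotransporter Slc12a4 and the zinc and manganese importer Slc39a8 were among those higher in basal cells. The iodide transporter Slc5a5, the nucleoside transporter Slc28a3 and the sodium-sugar cotransporter Slc5a9 were among those lower there. The calls are from limma's moderated test over all arrays, with Benjamini-Hochberg adjustment over 29428 features and a threshold of 0.05. The members called are 39.7% of the set, beside 26.9% of all tested features and 33.8% of all named genes. The median change of the members was -0.05 on the log2 scale, beside -0.06 over all features. For 101 of the 102 the groups did not overlap. As each slide held every group, those members could only have the same sign on both slides. All 102 did, which is thus no separate support. In the fit with a slide block 94 were also called. Among the 8 that were not were Slc7a7, Slc22a23, Slc25a35 and Slc35f1, described below. Some calls near the threshold were lost in several settings, namely those of Slc35f1 in 12 of 21 settings, Slc22a23 in 11 of 22, Slc39a14 in 8 of 22, Slc44a1 in 6 of 22, Slc2a9 and Slc25a35 in 5 of 22, and Slc28a2 in 4 of 22. The higher calls compare with 13.8% of all features and the lower calls with 13%, and groups without overlap made up 52.2% of all features. The class counts below are to be read beside the same shares.

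**Figure D1:**
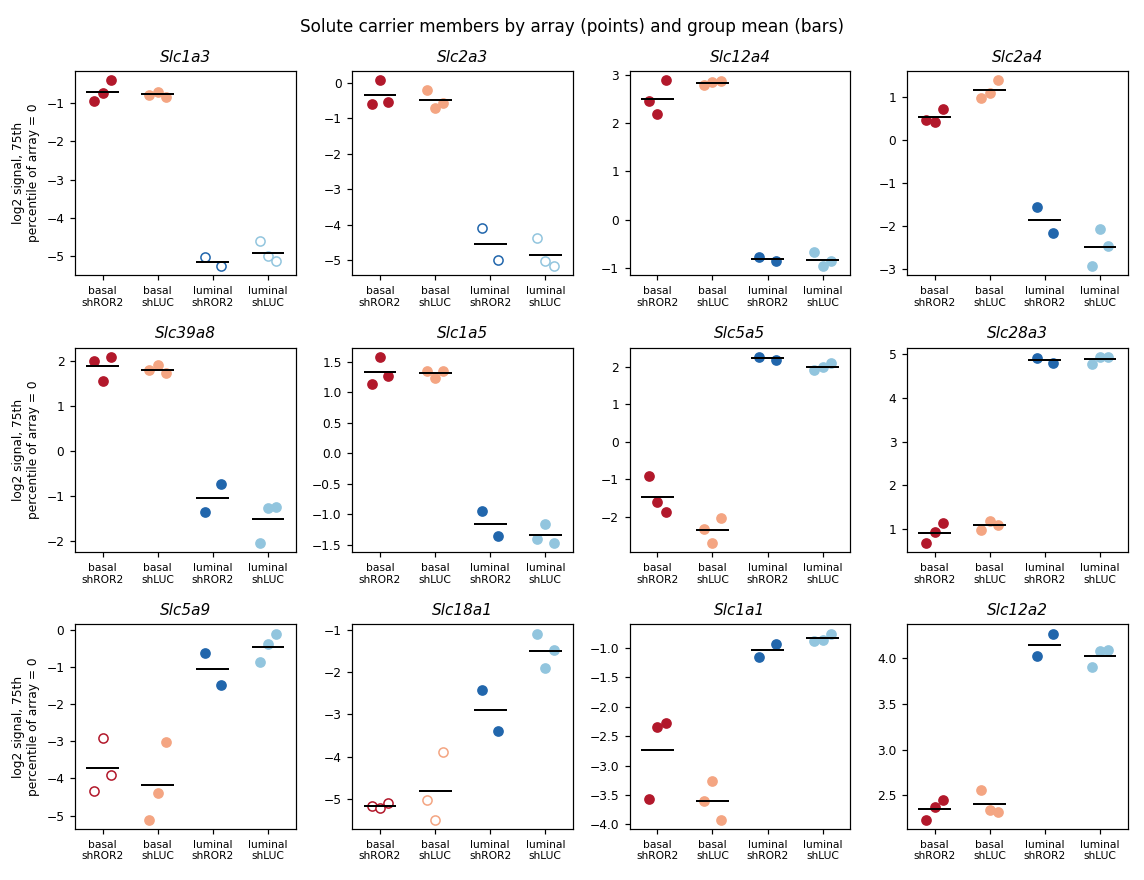
Level of 12 solute carrier genes on each array (vertical axis, log2 signal with the array's 75th percentile at 0) in 4 groups (horizontal axis). Points are arrays, bars are group means, and open points mark groups in which the gene was not well above background on any array. For each gene shown, the basal shLUC points lie on one side of the luminal shLUC points without overlap.

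Some transporters were not well above background on any array of one compartment. There the true difference is only bounded, and it is given as "at least" a fold, computed against the dimmest signal that lay well above background. Of the 102 called members, 13 were so dim in luminal shLUC cells and 4 in basal shLUC cells. Such members met the detection rule without any array of the dim group, through groups that include the one where they are higher. For them the filter and the call draw on the same signals. In bulk samples such as these, fewer cells of a type and less RNA per cell cannot be told apart.

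Markers of other cells moved with the compartment. Of 7 fibroblast genes, 7 were called higher in basal shLUC cells (median log2 change 3.81), with a summed linear level of 53.1 to 57.7 in basal shLUC arrays and 6.6 to 6.77 in luminal shLUC arrays. In the luminal arrays Lum and Pdgfra were not above background. Of 7 endothelial genes, 5 were called higher in basal cells (median 2.15), with sums of 19.8 to 25.1 in basal arrays and 10.9 to 11.6 in luminal arrays. Of 4 measured pericyte genes, 2 were called higher and 1 lower, with sums of 3.78 to 4.6 in basal arrays and 3.1 to 3.34 in luminal arrays, and Kcnj8 was not above background in either. Of 7 leukocyte genes, 3 were called lower, namely Cd74, H2-Ab1 and Lyz2, and 4 were not called. The sums of the list were 59.3 to 62.7 in basal arrays and 84.9 to 86.1 in luminal arrays. The part of these cells in the transporter differences was not tested.

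Amino acid transporters leaned towards the basal side. Of 46 members, 18 were called higher in basal shLUC cells, 6 lower and 22 neither, with a median change of 0.59. The called share was 52.2%, beside 26.9% of all features and 33.8% of named genes. Slc1a3, which takes up glutamate and aspartate with sodium, stood at -0.77, -0.69 and -0.83 in basal shLUC arrays, against -4.61, -5.01 and -5.13 in luminal shLUC arrays. The luminal arrays did not rise above background for it, and the difference was at least 5.13-fold (adjusted p = 5.64e-07). Slc1a5, the exchanger that supplies glutamine, stood at 1.35, 1.23 and 1.35 in basal shLUC cells and at -1.41, -1.16 and -1.47 in luminal shLUC cells. Its change was 2.66 ± 0.16 (log2, SE, adjusted p = 4.31e-06).

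The heterodimer that exchanges large neutral amino acids was higher in basal cells in both its parts. Slc7a5, its light chain, stood at 5.03, 4.97 and 5.29 in basal shLUC cells and at 3.13, 3.04 and 2.93 in luminal shLUC cells (change 2.07 ± 0.14, adjusted p = 8.33e-06). Slc3a2, the heavy chain that several light chains need to reach the surface, stood at 6.77, 6.71 and 6.75 against 6.01, 6.11 and 6.10 (0.67 ± 0.09, 0.000652). Neither gene's arrays overlapped between the compartments, and the difference of the heavy chain was the smaller of the pair. Slc7a11, the cystine-glutamate exchanger that uses the same heavy chain, was detected on only 3 of 11 arrays and was not called (adjusted p = 0.423).

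Other basal-high members of the class handle osmolytes and cationic or branched amino acids. Slc6a6, the taurine transporter, stood at 1.72, 2.09 and 1.88 in basal shLUC cells and at -1.12, -0.61 and -1.08 in luminal shLUC cells (2.83 ± 0.22, adjusted p = 1.77e-05). Slc43a1, which carries large neutral amino acids without sodium, was at least 1.82-fold higher (8.61e-05), and Slc43a3 of the same family changed by 1.64 ± 0.13 (2.26e-05). The creatine transporter Slc6a8 changed by 1.45 ± 0.16, the arginine and lysine transporter Slc7a1 by 1.15 ± 0.12, and Slc38a2, which imports small neutral amino acids with sodium, by 0.69 ± 0.10. Dim in luminal cells were Slc6a15 (at least 2.32-fold higher in basal cells), Slc6a17 (at least 3.22-fold), Slc38a5 (at least 1.96-fold) and Slc7a3 (at least 1.89-fold).

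The 6 members of the class that were lower in basal cells included relatives of these. Slc1a1, another glutamate transporter of Slc1a3's family, stood at -3.60, -3.27 and -3.92 in basal shLUC cells and at -0.89, -0.87 and -0.76 in luminal shLUC cells. It changed by -2.76 ± 0.32 (adjusted p = 0.000278), and only 1 of the 3 basal arrays lay above background. Slc38a1, a glutamine importer of the family of Slc38a2, changed by -1.84 ± 0.27 (0.000992), and the peptide transporter Slc15a2 by -1.68 ± 0.17 (9.72e-05). Within family Slc7, Slc7a4 changed by -2.24 ± 0.28 and the cationic amino acid transporter Slc7a2 by -1.96, whereas Slc7a5, Slc7a1 and Slc7a8 were higher in basal cells. The remaining member, Slc7a7, changed by -0.71 ± 0.20 (0.0272).

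Families grouped as sugar transporters leaned the other way, with 3 called higher and 8 called lower of 22 members (median -0.29). Their called share was 50%, beside 26.9% of all features. The class is defined by family, and among the lower members Slc5a5 carries iodide, Slc5a6 carries vitamins and Slc5a8 carries monocarboxylates rather than sugars. Slc2a3, a high-affinity glucose transporter best known from neurons, stood at -0.21, -0.71 and -0.57 in basal shLUC cells and at -4.37, -5.04 and -5.17 in luminal shLUC cells. It was dim on every luminal array and at least 6.18-fold higher in basal cells (adjusted p = 1.15e-05). Slc2a4, the glucose transporter that insulin brings to the surface of muscle and fat cells, stood at 0.99, 1.09 and 1.40 against -2.94, -2.07 and -2.47 (3.65 ± 0.25, 8.5e-06). The measured adipocyte genes did not move together, with 1 of 4 called higher, 1 lower, and summed levels of 23.4 to 26.3 in basal and 6.98 to 8.58 in luminal shLUC arrays. Their part in the Slc2a4 difference was not tested.

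Slc5a5, which concentrates iodide for thyroid hormone and for milk, had the largest measured difference in favour of luminal cells. It stood at -2.32, -2.70 and -2.04 in basal shLUC cells and at 1.92, 2.01 and 2.11 in luminal shLUC cells, a change of -4.36 ± 0.25 (adjusted p = 2.75e-06). Slc5a9, a sodium-coupled transporter of mannose and glucose, stood at -5.11, -4.40 and -3.03 against -0.88, -0.38 and -0.11 (-3.72 ± 0.56, 0.00116). Of its basal arrays 1 of 3 lay above background. Slc2a9, a urate transporter despite its place in the glucose family, changed by -3.01 ± 0.83 (0.0262), with a wide spread over the basal arrays (-3.09, -3.01 and -1.09). The intestinal glucose cotransporter Slc5a1 was dim on all basal shLUC arrays and at least 1.82-fold lower there (0.00225), and Slc5a6 changed by -2.21 ± 0.35 (0.00166).

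Metal transporters split evenly, 5 called higher and 5 lower of 27 (37% called, beside 26.9% of all features, median -0.03). The zinc importers of family Slc39 did not move as one. Slc39a8, which also carries manganese and cadmium, stood at 1.78, 1.90 and 1.72 in basal shLUC cells and at -2.04, -1.26 and -1.25 in luminal shLUC cells (3.32 ± 0.26, adjusted p = 1.95e-05). Slc39a10 stood at 1.05, 1.14 and 1.04 against -1.52, -1.58 and -1.65 (2.66 ± 0.16, 4.23e-06), and its close relative Slc39a6 changed by 1.25 ± 0.11. Slc39a11 went the other way by -1.55 ± 0.23 (0.00123), and Slc39a14, which also imports iron, by -0.44 ± 0.12 (0.0234). The copper transporters Slc31a1 and Slc31a2 changed by -0.75 and -1.27, and the haem transporter Slc48a1 by -0.96.

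The zinc exporters linked to milk were not called. Slc30a2 stood at -3.00, -2.06 and -2.02 in basal shLUC cells and at -1.67, -2.20 and -1.76 in luminal shLUC cells (adjusted p = 0.207). Slc30a4 stood at 1.13, 1.09 and 1.27 against 0.81, 0.94 and 0.98 (0.134). The groups overlapped for Slc30a2 and not for Slc30a4. The iron genes Slc40a1, the exporter ferroportin, and Slc11a2, a proton-coupled iron importer, were not called either (0.232 and 0.384).

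Exchangers and cotransporters of chloride, bicarbonate, protons and other anions had 3 called higher and 3 lower of 28 (median 0.03). The called share was 21.4%, beside 26.9% of all features. The family of cation-chloride cotransporters held opposite ends. Slc12a4, which carries potassium and chloride outward, stood at 2.78, 2.85 and 2.88 in basal shLUC cells and at -0.66, -0.96 and -0.86 in luminal shLUC cells (3.66 ± 0.18, adjusted p = 1.04e-06). Slc12a2, which brings sodium, potassium and chloride inward, stood at 2.56, 2.34 and 2.32 against 3.91, 4.08 and 4.09 (-1.61 ± 0.12, 1.86e-05). The chloride transporter Slc26a9 was lower in basal cells by -1.45 ± 0.24, and the sodium bicarbonate cotransporter Slc4a4 was not called (0.104). Slc9a3r1, a scaffold named for a sodium-proton exchanger and not itself a transporter, changed by -2.25 ± 0.20 (5.22e-05).

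Nucleoside and nucleotide-sugar transporters had 6 called higher and 8 lower of 28 (50% called, beside 26.9% of all features, median -0.24). Slc28a3, which concentrates nucleosides with sodium or protons, stood at 0.98, 1.18 and 1.08 in basal shLUC cells and at 4.78, 4.93 and 4.94 in luminal shLUC cells (-3.81 ± 0.13, adjusted p = 1.74e-07). Its family member Slc28a2 changed by 1.21 ± 0.30 (0.0163), so the concentrative transporters stood on opposite sides. The equilibrative transporters did as well, with Slc29a1 at 0.85 ± 0.18 (0.00699) and the lysosomal Slc29a3 at -1.33 ± 0.16 (0.000335). In family Slc35, Slc35f3 changed by -1.91 ± 0.21 (0.000191), and Slc35f1, dim in luminal cells, was at least 1.57-fold higher (0.0364). The class is defined by family here too, and a place in it does not show that a member carries nucleotide sugars. The probes of Slc35a2, the carrier of UDP-galactose, disagreed in sign, so its call is uncertain, as is that of the mitochondrial Slc25a26.

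**Figure D2:**
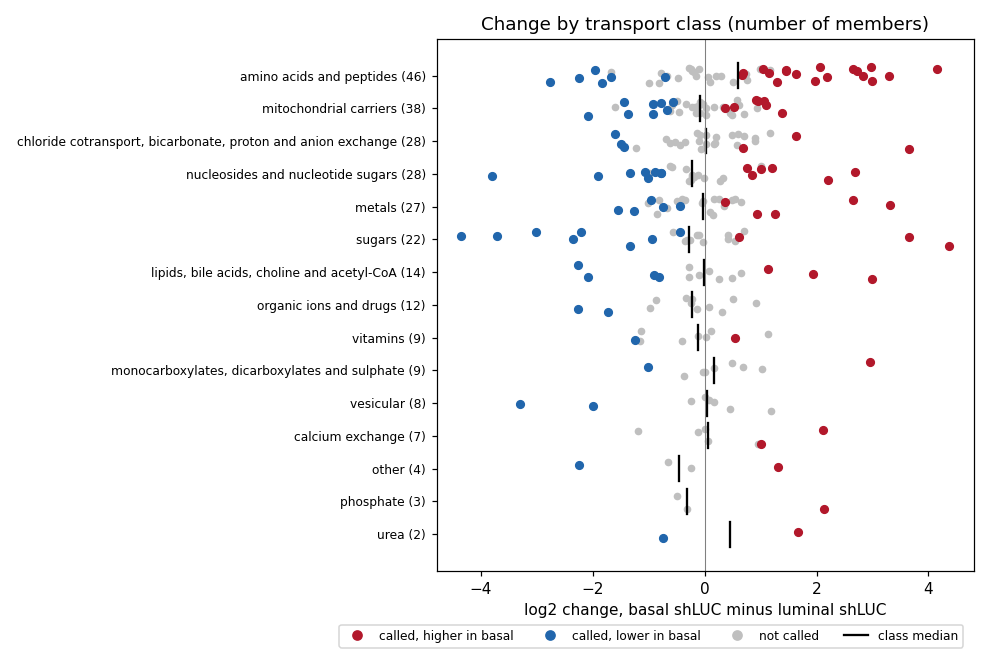
Log2 change of each member between basal shLUC and luminal shLUC cells (horizontal axis) by transport class (rows, with the number of members). Coloured points passed the test and black ticks are class medians. Amino acid transporters have a median of 0.59 and the sugar families -0.29, and most classes have called members on both sides of 0.

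Mitochondrial carriers of family Slc25 had 7 called higher and 8 lower of 38 (39.5% called, beside 26.9% of all features, median -0.09). Slc25a4, an exchanger of ADP and ATP known from heart and muscle, stood at 4.43, 4.46 and 4.42 in basal shLUC cells and at 2.95, 3.01 and 3.20 in luminal shLUC cells (1.38 ± 0.11, adjusted p = 2.15e-05). Its relative Slc25a5 changed by 0.37 ± 0.10 (0.0237). The glutamate carrier Slc25a22 and the aspartate-glutamate carrier Slc25a13 changed by 1.1 and 1.06. On the lower side stood Slc25a35 (-2.08 ± 0.59, 0.0286), the dicarboxylate carrier Slc25a10 (-1.44 ± 0.34, 0.0141) and the calcium-regulated phosphate carriers Slc25a23 (-1.37 ± 0.29, 0.00782) and Slc25a24 (-0.68 ± 0.21, 0.0444).

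Among 14 carriers of lipids, choline and bile acids, 3 were called higher in basal cells and 4 lower. The fatty acid transport proteins Slc27a6, dim in luminal cells and at least 1.88-fold higher in basal cells (adjusted p = 0.000485), and Slc27a3 (1.94 ± 0.26) opposed Slc27a1 (-0.82 ± 0.16, 0.00539). Of the choline-transporter family, Slc44a2 changed by 1.14 ± 0.14 (0.000369), Slc44a1 by -0.91 ± 0.25 (0.0261), and Slc44a4, dim in basal cells, was at least 1.54-fold lower (0.00158). Family Slc44 thus lay on both sides.

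The smaller classes added a few calls each. The phosphate importer Slc20a2 stood at 1.23, 1.22 and 1.19 in basal shLUC cells and at -0.99, -0.99 and -0.76 in luminal shLUC cells (2.13 ± 0.18, adjusted p = 2.99e-05), and its relative Slc20a1 was not called (0.108). Of 7 calcium exchangers, 2 were called higher, namely Slc24a5 (1.01 ± 0.13, 0.000511) and Slc8a1 (at least 1.53-fold, 0.0105). The urea transporters opposed each other, with Slc14a1 at least 2.53-fold higher (0.000519) and Slc14a2 changed by -0.74 ± 0.14 (0.00425). Of 9 carriers of monocarboxylates and related acids, Slc16a11 changed by 2.95 ± 0.52 (0.00302) and Slc16a5 by -1.01 ± 0.22 (0.00911). Among 9 vitamin transporters, the ascorbate importer Slc23a2 was higher (0.55 ± 0.12, 0.00886) and Slc46a3 lower (-1.25 ± 0.21, 0.00247).

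Of 8 vesicular and 12 organic-ion transporters, 25% and 16.7% were called, beside 26.9% of all features. None of these was called higher in basal cells, as 13.8% of all features were, and the classes are small. The vesicular monoamine transporter Slc18a1 stood at -5.02, -5.49 and -3.89 in basal shLUC cells, none above background, and at -1.09, -1.90 and -1.48 in luminal shLUC cells. It was at least 3.71-fold lower in basal cells (adjusted p = 0.000414). Slc17a9, which loads vesicles with nucleotides, changed by -1.99 ± 0.41 (0.00682). These were the called members among 8 of their class. Of 12 organic-ion transporters, Slc22a18 (-2.27 ± 0.28, 0.000352) and Slc22a23 (-1.73 ± 0.55, 0.046) were lower. Slc66a2, in the class of other families, changed by 1.31 ± 0.14 (0.000125).

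In shROR2 outgrowths, basal and luminal cells differed in 95 of the 257 members, 48 higher and 47 lower in basal cells. These are 37% of the members, beside 22.9% of all features (10.6% higher and 12.3% lower) and 30.3% of named genes. Of them, 78 were also called in shLUC outgrowths, and all 78 had the same direction there. They make up 82.1% of the shROR2 calls and 76.5% of the shLUC calls. Both comparisons come from one fit with a shared spread per gene, which favours the same genes in each. The matching share over all features is not given here, so the overlap is only a description. The count fell to 60 without luminal shROR2 replicate 2, 1 of only 2 arrays of its group, and to 51 when only the groups compared entered the fit. Fibroblast genes were again higher in basal cells (5 of 7 called, median 3.3, sums of 51.6 to 68.7 in basal and 11.4 to 12 in luminal arrays), as were 6 of 7 endothelial genes (sums of 36.7 to 46.5 in basal and 13.6 to 13.9 in luminal arrays), and their part was not tested.

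**Figure D3:**
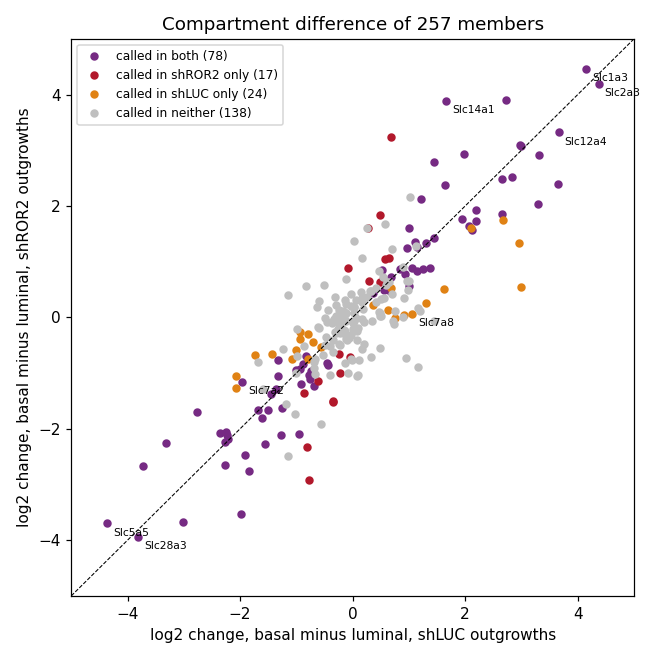
Change between basal and luminal cells of the 257 members in shROR2 outgrowths (vertical axis, log2) against the same change in shLUC outgrowths (horizontal axis, log2), with colours for the outgrowths in which a member was called. The 78 members called in both lie at the upper right and lower left, and the dashed line marks equal change.

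Several genes described above were also called in shROR2 outgrowths. Slc1a3 stood at -0.94, -0.74 and -0.39 in basal shROR2 cells and at -5.03 and -5.27 in luminal shROR2 cells, at least 5.32-fold higher (adjusted p = 1.34e-06). Slc2a3 was at least 6.74-fold higher (4.28e-05), and Slc12a4 stood at 2.45, 2.18 and 2.89 against -0.77 and -0.85 (3.32 ± 0.20, 5.96e-06). Slc43a1 was at least 4.17-fold higher (2.6e-05) and Slc14a1 at least 3.51-fold (7.65e-06).

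On the lower side in shROR2 outgrowths, Slc28a3 stood at 0.68, 0.93 and 1.14 in basal cells and at 4.91 and 4.81 in luminal cells (-3.94 ± 0.15, adjusted p = 4.96e-07). Slc5a5 stood at -0.92, -1.62 and -1.87 against 2.27 and 2.19 (-3.70 ± 0.28, 2.41e-05). Slc17a9 was dim in basal shROR2 cells and at least 7.43-fold lower there (0.000677). The amino acid transporter-like gene Slc38a6 changed by -2.92 ± 0.51 (0.00327), whereas in shLUC outgrowths it changed by -0.78 and was not called (0.244). Slc2a9 changed by -3.67 ± 0.93 (0.0202), with 1 of 3 basal arrays above background.

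Amino acid transporters in shROR2 outgrowths had 16 called higher and 6 lower, with a median of 0.19. Metal transporters had 5 called higher and 8 lower, with a median of -0.50. Sugar families had 2 and 8, nucleoside and nucleotide-sugar carriers 5 and 7, and mitochondrial carriers 8 and 5. The probes of the called members Slc25a26, Slc29a3, Slc31a2 and Slc35a2 disagreed in sign in shROR2 outgrowths, so these calls are uncertain. Over all features, 10.6% were called higher and 12.3% lower. Slc7a8 and Slc36a4, called in shLUC outgrowths, changed by 0.06 and 0.26 in shROR2 outgrowths, though the other passing probe of Slc36a4 gave 0.86. Whether such changes differed between the outgrowths is the same question as whether the hairpin acted differently in the compartments, which is tested below.

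In basal cells 3 solute carrier genes differed between arrays labelled shROR2 and shLUC. The cationic amino acid transporter Slc7a2 was higher with the Ror2 hairpin, and the neutral amino acid transporter Slc7a8 and the mitochondrial carrier Slc25a16, linked to coenzyme A, were lower. The 3 are 1.17% of the members, beside 0.948% of all features (0.374% higher and 0.574% lower) and 1.3% of named genes, a share near the background. The median change of the members was 0.04, beside -0.05 over all features. At an unadjusted p under 0.05 there were 43 members. The share of all features under that p is not given here, so this count is not set against a background.

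Slc7a2 stood at 0.81, 1.01 and 0.72 in basal cells labelled shROR2, against -0.81, -0.52 and -0.07 in basal shLUC cells. The groups did not overlap, as for 18.5% of all features, and the change was 1.31 ± 0.18 (2.48-fold, adjusted p = 0.022), with 1.20 on one slide and 1.53 on the other (adjusted p = 0.0423 once slide entered the fit as a block). In luminal cells Slc7a2 stood higher than in basal cells in each outgrowth, at 2.10 and 1.92 in arrays labelled shROR2 and 1.49, 1.53 and 1.48 in shLUC arrays.

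Slc7a8, a light chain that pairs with Slc3a2, stood at 0.61, 0.72 and 0.47 in basal cells labelled shROR2, against 1.32, 1.34 and 1.45 in basal shLUC cells. Its change was -0.77 ± 0.12 (adjusted p = 0.0284), with -0.85 and -0.62 on the slides and 0.0483 with a slide block. The shROR2 basal levels lay near those of luminal cells, which stood at 0.42 and 0.66 with shROR2 and at 0.34, 0.23 and 0.41 with shLUC. Slc25a16 stood at -2.39, -3.05 and -2.95 in basal cells labelled shROR2 and at -1.59, -1.68 and -1.91 in basal shLUC cells (-1.07 ± 0.19, 0.0468). Its slides gave -0.92 and -1.38, and a fit with a slide block did not call it (0.0734).

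These calls lay close to the threshold and moved with single arrays. The count was 8 without basal shROR2 replicate 1, 4 without basal shROR2 replicate 2 and 4 without basal shROR2 replicate 3. It was 0 without basal shLUC replicate 1 or 2 and without any of the luminal shLUC replicates, and 1 without basal shLUC replicate 3 or either luminal shROR2 replicate. Over 22 settings Slc7a2 was called in 14, Slc7a8 in 10 and Slc25a16 in 4. Next by p stood Slc43a1 (1.21 ± 0.27, adjusted p = 0.0792) and Slc35g1 (-0.83 ± 0.19, 0.0934), neither called. Slc43a1 stood at -1.52, -0.44 and -1.18 in basal cells labelled shROR2 and at -2.45, -2.46 and -1.87 in basal shLUC cells, without overlap.

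**Figure D4:**
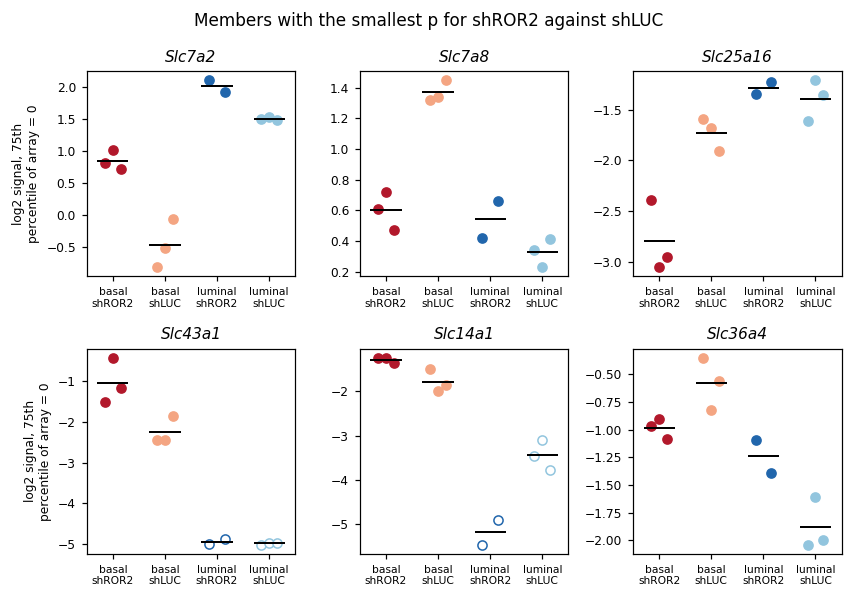
Level on each array (vertical axis, log2 signal with the array's 75th percentile at 0) of 6 members with small p for the hairpin, in 4 groups (horizontal axis). Points are arrays, bars are group means, and open points mark groups with no array well above background. Slc7a2, Slc7a8 and Slc25a16 passed the test in basal cells, and Slc43a1, Slc14a1 and Slc36a4 passed none of the hairpin tests. For Slc36a4 the brighter of 2 passing probes is shown.

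Several lists of genes of other cells, and a list of stress genes such as Fos, Atf3 and Hspa1a, also stood apart in the basal arrays labelled shROR2. Of 7 endothelial genes, 2 were called higher (median 0.93), with summed levels of 36.7 to 46.5 against 19.8 to 25.1 in basal shLUC arrays. Of 7 leukocyte genes, 2 were called higher, Cd74 (1.27) and H2-Ab1 (1.12), with sums of the list of 88.3 to 97.6 against 59.3 to 62.7. The list did not rise as a whole. The other 5 were not called, namely Lyz2 (0.67), Cd3e (0.29), Cd79a (0.19), Ptprc (0.03) and Csf1r (-0.01). Of 4 measured adipocyte genes, 1 was called higher, with sums of 45.6 to 56.2 against 23.4 to 26.3, and Lep was not above background in either group nor Adipoq in the shROR2 group. Of 10 stress genes, 5 were called higher (median 0.55), with sums of 710 to 742 against 442 to 464. None of 10 luminal markers was called, with sums of 74 to 93.9 against 62.4 to 65.5. None of 6 basal markers was called either, with sums of 1400 to 1440 against 1470 to 1640. Fibroblast genes had 0 of 7 called (sums of 51.6 to 68.7 against 53.1 to 57.7), and pericyte genes 0 of 4 (5.43 to 7.16 against 3.78 to 4.6). The part of these genes' sources in the results for Slc7a2, Slc7a8 and Slc25a16 was not tested.

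In luminal cells no solute carrier gene was called between arrays labelled shROR2 and shLUC by limma. Over all features 1 of 29428 was called, or 0.0034%. At an unadjusted p under 0.05 there were 17 members, again without the share of all features. The smallest p belonged to the urea transporter Slc14a1, at -5.46 and -4.90 in luminal cells labelled shROR2 and -3.46, -3.11 and -3.77 in luminal shLUC cells (adjusted p = 0.147). Neither group rose above background for it, so no fold is given. Slc39a10 stood at -0.75 and -1.0 against -1.52, -1.58 and -1.65 (0.71 ± 0.18, 0.474), and Slc25a4 at 3.52 and 3.48 against 2.95, 3.01 and 3.20 (0.45 ± 0.12, 0.54). Their groups did not overlap, which in luminal cells held for 29% of all features. Slc36a4, a lysosomal amino acid transporter, changed by 0.64 ± 0.19 (0.611) on its brighter probe and by 0.12 on its other passing probe. Slc7a6, dim with shROR2, was not called (0.7). No gene of the marker lists or the stress list was called in luminal cells. The summed levels of several lists did not overlap, at 11.4 to 12 in luminal arrays labelled shROR2 against 6.6 to 6.77 in luminal shLUC arrays for fibroblast genes, and at 12.8 to 14.8 against 6.98 to 8.58 for adipocyte genes. For leukocyte genes the sums were 107 to 109 with shROR2 against 84.9 to 86.1 with shLUC, for endothelial genes 13.6 to 13.9 against 10.9 to 11.6, and for stress genes 692 to 726 against 561 to 592. Lum, Pdgfra, Adipoq and Lep were not above background in either luminal group, and the part of these genes' sources was not tested.

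**Figure D5:**
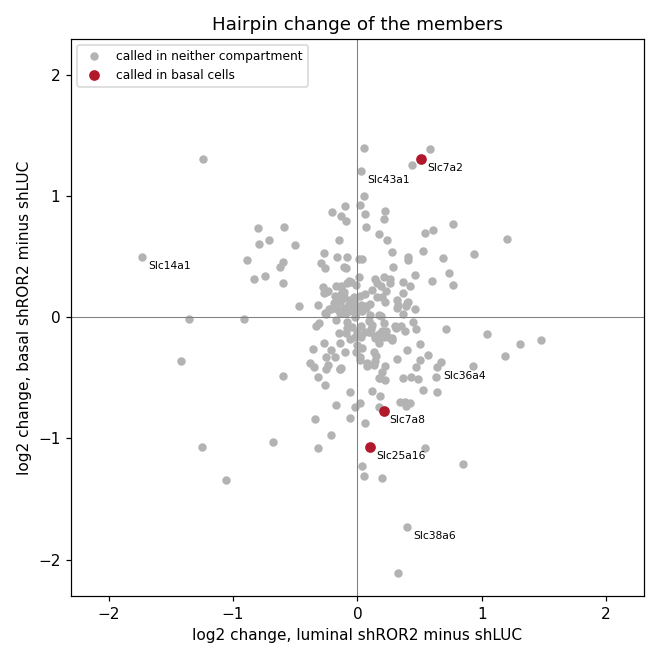
Log2 change between arrays labelled shROR2 and shLUC in basal cells (vertical axis) against the same change in luminal cells (horizontal axis) for the 257 members. The 3 red points, Slc7a2, Slc7a8 and Slc25a16, passed the test in basal cells, and none passed it in luminal cells.

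The hairpin change in basal cells minus that in luminal cells was tested for every member, and limma called 0 (of all 29428 features as well, 0%). The 30 members at an unadjusted p under 0.05 are also given without the share of all features. Slc14a1 had an adjusted p of 0.129, but its luminal levels lay below background on every array, so no size is given. Among members measured in all groups, Slc7a8 came first with -0.99 ± 0.18 (0.229), then Slc36a4 with -1.05 ± 0.25 (0.352), Slc25a16 with -1.18 ± 0.29 (0.365) and Slc48a1 with -1.13 ± 0.29 (0.381). The other passing probe of Slc36a4 gave only -0.33. That Slc7a8 and Slc25a16 passed the test in basal cells and not in luminal cells is therefore not shown to be a difference between the compartments.

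Averaged over both compartments, 1 member was called between arrays labelled shROR2 and shLUC, 0.389% beside 0.445% of all features. It was Slc7a2, higher by 0.91 ± 0.14 (adjusted p = 0.0363), with all 5 arrays labelled shROR2 above the shLUC arrays of their own compartment. A slide block ended the call (0.067). The count was 0 without any one of the luminal arrays or basal shLUC replicate 1 or 2, and 2 without basal shROR2 replicate 1. Next by p, leaving out Slc14a1 for its luminal levels below background, were the glutamate transporter Slc1a6 (-0.38 ± 0.10, 0.167), the organic cation exporter Slc47a2 (0.171, with no size given because it was dim on both luminal arrays labelled shROR2) and the mitochondrial sodium-calcium exchanger Slc8b1 (-0.29 ± 0.08, 0.188). None of these was called.

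Other genes that serve solute transport were listed from general knowledge. Of 20 measured transporters of the solute carrier series with other names, 5 were called higher in basal shLUC cells and 5 lower. These are 50%, beside 26.9% of all features and 33.8% of named genes. Slco2a1, a prostaglandin transporter, changed by 2.12 ± 0.15 (adjusted p = 1.03e-05), the phosphate exporter Xpr1 by 1.26 ± 0.19 (0.00113), and the sphingosine phosphate transporter Spns2 by -2.14 ± 0.11 (1.54e-06). In basal cells labelled shROR2, Slco2a1 was lower than in basal shLUC cells (-0.88 ± 0.15, 0.0389) and Spns2 higher (0.61 ± 0.11, 0.0468). Of 22 ion pumps and water channels, 7 were called higher in basal shLUC cells and 3 lower (45.5%, beside the same shares). The sodium pump subunit Atp1b3 changed by 1.18 ± 0.11 and the calcium pump Atp2a2 of the endoplasmic reticulum by 1.23 ± 0.11. The secretory-pathway calcium pump Atp2c2 changed by -1.77 ± 0.40 and the water channel Aqp5 by -1.99 ± 0.11.

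Between the hairpins in basal cells, the water channel Aqp1, also found in endothelium, was higher with shROR2 (1.25 ± 0.21, adjusted p = 0.0379), as was the pump regulator Fxyd5 (1.01 ± 0.18, 0.0468), and Aqp3 was lower (-0.83 ± 0.15, 0.0492). These calls, like those of Slco2a1 and Spns2 between the hairpins, lay close to the threshold. They were not followed over the other settings, in which the solute carrier calls of this comparison often fell away. Of 21 partners and regulators of solute carriers, 4 were called higher in basal shLUC cells and 5 lower (42.9%, beside 33.8% of named genes). In either compartment 0 of these differed between the hairpins. Emb, a chaperone of monocarboxylate transporters, changed by 4.82 ± 0.20 (3.88e-07), and Bsg, its relative, by -0.59 ± 0.10 (0.00271). Nfe2l2, a transcription factor of oxidative stress, changed by 1.72 ± 0.13. The arrestin-like Txnip and Arrdc3, which curb glucose uptake, changed by -1.20 and -1.69, and the kinase Wnk4, which sets the activity of chloride cotransporters, by -2.23 ± 0.34 (0.00134).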

How the data were processed

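The deposited one-colour scanner files give an intensity for each spot, from which the Agilent software had already subtracted a background within the array, per the file headers. Per the labels' protocols, RNA was amplified with a NuGEN kit and labelled with Cy3. The authors' deposited table holds linear intensity values with nearly equal column medians (88.79 to 89.33), which followed the raw signals on the log2 scale (r = 0.996 to 0.998). No source used here gives its normalization, and it served as an alternative.

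Control and outlier spots were dropped, spots of a probe averaged, and log2 processed signal taken relative to the 75th percentile of each array (112.3 to 131.4). Probes were named through RefSeq accessions (26582 of 55681 named). The filter was detection on at least 3 of 11 arrays, and the brightest probe stood for a gene (54 members had several passing probes). That left 29428 features, of which 14067 were named genes. One limma 3.58.1 fit (lmFit and eBayes, 4 group means, prior degrees of freedom 1.85, R 4.3.3) covered all 11 arrays. P-values are 2-sided, adjusted by Benjamini-Hochberg within a comparison and called under 0.05. The scanner's mean signal column was not used here, so normexp correction used median signals. The number of arrays limits the precision, and the test was tried on simulated data with a single spread per gene over all groups. Over the comparisons between 2 groups, it recovered 30% to 36% of changes of 1 log2 unit. Of changes of 2 log2 units it recovered 66% to 70%, so many real changes can go uncalled. Promoters and figures used Python 3.11.15, pandas 2.3.3 and matplotlib 3.10.9.

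Arrays lay on 2 slides that each held every group. Same-numbered samples did not deviate together (15 pairs, r from -0.0373 to 0.04), so replicate numbers were not used to pair arrays. The members, lists, classes and naming rule were chosen with earlier results of these data known. Named were the largest called members without overlap (10 in each direction in shLUC outgrowths, 5 in shROR2), the 5 smallest p for each hairpin comparison, the 2 smallest p of each class, opposed members of a family, and a set list. Some members that fill out a class were added after their values were seen.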

Additional observations from a re-analysis of the deposited data

How the results depend on the processing

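The compartment counts held under most settings. In shLUC outgrowths they were 81 to 111 over the arrays left out and within 1.5 times 102 in every other setting. In shROR2 outgrowths they were 60 to 102, and 51 when only the groups compared entered the fit, which leaves fewer arrays for the spread. In luminal cells the hairpin count was 0 over every array left out, and 1 with array weights (Slc14a1, adjusted p = 0.03). In basal cells the hairpin count of 3 ranged from 0 to 8 over the arrays left out, was 1 without the filter, and was 0 with array weights and with only the groups compared. The average over compartments, 1 in the report, ranged from 0 to 2, was 0 without the filter and with the slide as a block, and was 2 in the authors' table. For these, the cause was not tested. The difference between compartments gave 0 over the arrays left out and in every setting fitted. Fits on only the groups compared were not run for the difference and the average, which use every group. With the replicate number as a block, which the design does not state, the counts were 0 for the basal hairpin comparison, 0 for the average, 99 for the compartments in shLUC outgrowths and 87 in shROR2 outgrowths. No value that had passed the test changed sign, while some hairpin changes that had not passed it did. Over named genes and settings, 2769 values kept their side of the threshold, 105 lost it and 10 gained it. Dim probes near background limit the folds given as bounds.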
